A study of Mus musculus with 2 samples.

Results

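This report describes the STARR-seq elements listed around 10 genes whose products set and keep T lineage identity: Tcf7, Lef1, Bcl11b, Satb1, Tox, Myb, Tcf12, Zbtb7b, Id2 and Id3. An element of the deposited list was assigned to a gene when that gene had the nearest protein-coding transcription start site (TSS) to the element's midpoint, within 100000 bp, in GENCODE M21 basic. This gave 28 of the 10531 listed elements, and each of the 10 genes had at least 1. The rule uses gene names and positions and no measured effect, but the genes were chosen with earlier results of these data known. In STARR-seq, DNA fragments are cloned into the transcribed part of a reporter plasmid, and the RNA copies of each fragment report its regulatory activity. The series held 1 group, activated naive CD4-positive alpha-beta T cells from mice of strain C57BL/6NJ, with 2 biological replicates that share 1 donor record. Both were treated for 3 days with anti-CD3e, anti-CD28, anti-Interleukin-4 and anti-Interferon-gamma antibodies and with Interleukin-2, and both held the reporter on an episome introduced by transfection. With 1 group, no treatment or cell type could be compared. Age was labelled unknown and sex was not collected. A plasmid-borne fragment is read outside its own chromosome, which limits the assay as a model of the gene's native locus.

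TCF1 (from Tcf7) and LEF1 are HMG-box factors of T cell development, and BCL11B, SATB1, TOX and MYB are further factors that thymocytes need for commitment or maturation. ZBTB7B, known as ThPOK, holds cells in the CD4 lineage. TCF12, known as HEB, is an E protein that binds E-box sites as a dimer, and ID2 and ID3 are helix-loop-helix proteins that pair with E proteins and keep them off DNA. Promoters of developmental factors are often rich in GC and CpG, whereas their enhancers are often scattered over long introns and neighbouring intergenic sequence.

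The sequences below are the central 200 bp, or the whole element where it is narrower, of the element with the largest absolute effect at 7 of the genes. They are shown because the description turns on the contrast between mostly GC-rich negative elements and GC-poorer positive ones. Position does not follow this fully: the negative Id3 element lies 4.30 kb from the TSS at 68.5% GC. The Bcl11b intron element is negative at 53.4% GC. All are read 5′ to 3′ on the plus strand of GRCm38.p6, the assembly of mm10, from the C57BL/6J reference. Windows were moved off annotated untranslated regions, which displaced that of Satb1 to the upstream side of its TSS. The Zbtb7b element lies wholly in an untranslated region and is not printed. Capitals mark matches, on either strand, to any of 15 motifs that are spelled out further on.
Tcf7 promoter, chr11:52283313-52283512: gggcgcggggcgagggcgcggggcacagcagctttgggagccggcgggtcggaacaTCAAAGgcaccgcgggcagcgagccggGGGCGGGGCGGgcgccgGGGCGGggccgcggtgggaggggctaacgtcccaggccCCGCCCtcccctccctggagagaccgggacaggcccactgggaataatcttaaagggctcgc
Satb1 promoter, chr17:51833291-51833490: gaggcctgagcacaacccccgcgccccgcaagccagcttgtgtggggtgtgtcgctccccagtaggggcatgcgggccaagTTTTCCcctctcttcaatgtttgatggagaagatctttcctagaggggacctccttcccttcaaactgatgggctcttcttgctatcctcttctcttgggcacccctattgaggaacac
Myb promoter, chr10:21161038-21161237: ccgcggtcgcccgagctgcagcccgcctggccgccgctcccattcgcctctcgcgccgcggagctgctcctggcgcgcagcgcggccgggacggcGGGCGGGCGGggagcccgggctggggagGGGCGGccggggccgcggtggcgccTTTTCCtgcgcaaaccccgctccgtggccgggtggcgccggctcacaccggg
Id3 downstream, chr4:136147701-136147900: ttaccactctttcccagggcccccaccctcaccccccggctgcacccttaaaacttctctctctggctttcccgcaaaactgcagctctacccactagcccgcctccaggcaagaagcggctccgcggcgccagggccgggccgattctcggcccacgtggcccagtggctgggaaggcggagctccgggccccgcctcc
Bcl11b intron, chr12:107964476-107964675: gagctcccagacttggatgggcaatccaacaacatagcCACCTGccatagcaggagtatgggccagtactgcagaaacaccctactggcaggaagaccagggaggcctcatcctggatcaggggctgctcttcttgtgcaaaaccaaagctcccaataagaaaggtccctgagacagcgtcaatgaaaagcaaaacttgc
Lef1 intron, chr3:131169238-131169437: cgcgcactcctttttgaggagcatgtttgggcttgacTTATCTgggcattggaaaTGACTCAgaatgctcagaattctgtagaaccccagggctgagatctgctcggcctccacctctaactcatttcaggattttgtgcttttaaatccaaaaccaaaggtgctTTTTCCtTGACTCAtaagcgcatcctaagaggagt
Tcf12 upstream, chr9:72150751-72150900: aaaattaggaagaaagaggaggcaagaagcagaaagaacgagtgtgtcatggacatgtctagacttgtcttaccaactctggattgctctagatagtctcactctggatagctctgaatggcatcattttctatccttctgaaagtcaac
In these windows the Tcf7 promoter had 4 matches to the SP/KLF site and 1 to the TCF/LEF site, and the Myb promoter had 3 to the SP/KLF site and 1 to the NFAT site. The Lef1 intron held 2 AP-1 matches, 1 NFAT match and 1 GATA match. The displaced Satb1 window, which overlaps an exon of Gm6934, held 1 NFAT match. The central 200 bp of the Satb1 element instead held 2 SP/KLF and 2 asymmetric E-box matches and no NFAT match. The Bcl11b window held 1 asymmetric E-box. The Id3 and Tcf12 windows held none of the 15 motifs.

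The effect per element is the authors' deposited value, 1 for both replicates together, and is taken here as log2. Its log base and the order of its contrast are not stated, so positive is only probably higher reporter RNA, and every sign below carries that limit. The list gives no value per replicate, read count or input coverage, so depth is unknown, no error can be given for an effect, and the only test per element is the authors' own adjusted p-value. The number of tests was derived from the deposited p-values and adjusted p-values themselves, and came to 114722. With that number, Benjamini-Hochberg gave the deposited adjusted p of all 10531 elements within 0.1%, and the list is 9.18% of it. The number is thus implied by the list and not known independently. The largest adjusted p in the list was 0.01. Which regions near the 10 genes were tested but not listed was not analysed here, so a gene part without an element is not shown to be inactive. No expression was measured, so the cell type could not be checked against its markers.

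All 10 genes had a negative element, against 19.8% of the 21911 protein-coding genes on the chromosomes. A positive element was assigned to 6 genes (Lef1, Tox, Myb, Tcf12, Id2 and Id3), against 16% of all genes, and any element to 10, against 31.2%. The other 4 genes, Tcf7, Bcl11b, Satb1 and Zbtb7b, had only negative elements. With TSSs of every gene type competing, 1 gene had a positive element, and at an adjusted p of at most 0.001, 6 genes had a negative one. These shares were not tested. The sequence within 100000 bp for which the gene's TSS is nearest, here the gene's territory, ran from 21.9 kb for Zbtb7b to 344 kb for Tcf12. A larger territory or more TSSs give more room for an assigned element, and Satb1 had 7 TSSs. The shares over all genes were not matched for either, so they do not show an excess at these loci. Id3 had the most elements, 6 in 59.5 kb, followed by Lef1 with 4 in 182 kb and Myb with 4 in 128 kb. Satb1 had 1 in 222 kb and Tcf7 had 1 in 64.6 kb.

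**Figure D1:**
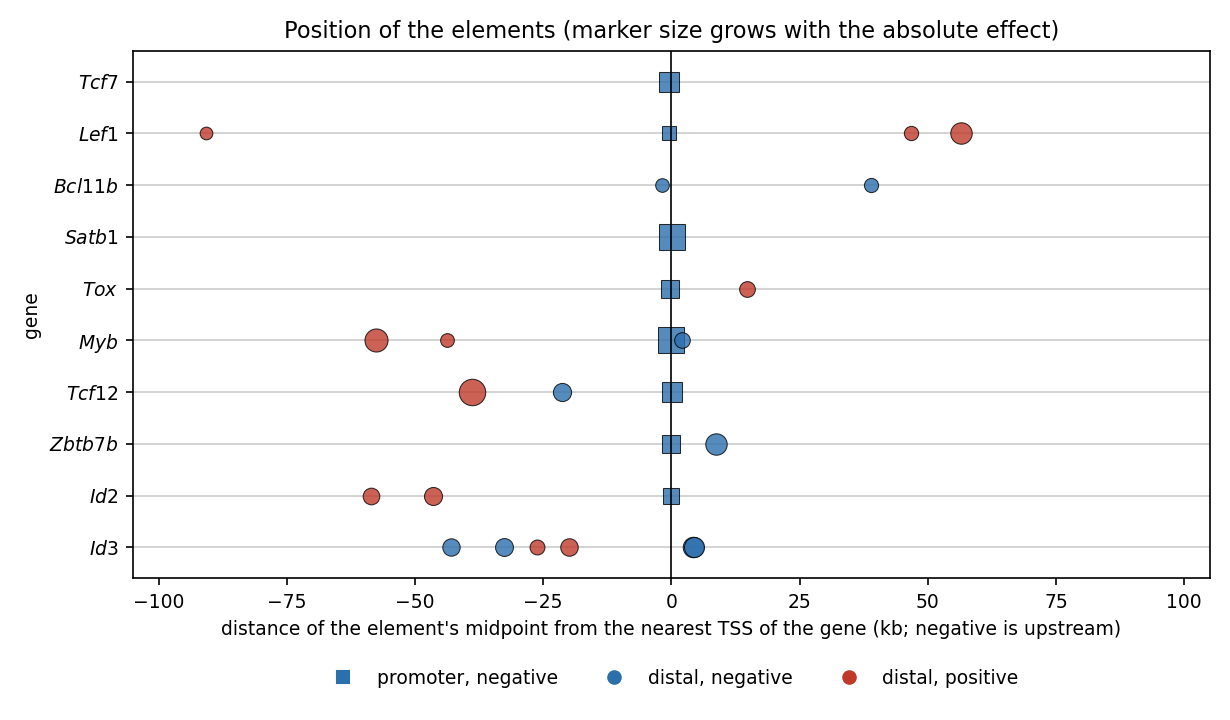
Position of the 28 elements relative to the nearest TSS of their gene, in kb along the direction of transcription, 1 row per gene. Squares are promoter elements and circles distal ones, red is positive and blue negative, and marker size grows with the absolute effect. All 8 squares are blue, and all 11 red circles lie more than 10000 bp from the TSS.

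Elements at the start sites were all negative and those far from them were mostly positive. A promoter element, here one whose midpoint lies within 1000 bp of any annotated TSS, was listed at 8 of the 10 genes, and all 8 were negative. Among all 5423 listed promoter elements 80.1% were negative. The remaining 20 elements were distal, 11 of them positive and 9 negative, whereas 84.7% of all 5098 listed distal elements were positive. Over the whole list 51.3% of elements were positive, against 11 of 28 here. The median effect was -1.25 over promoter elements (range -1.97 to -0.87) and 0.79 over distal elements (range -1.51 to 1.95). The distal median changed sign, to -0.85 with a distance limit of 50000 bp and to -1.001 when TSSs of every gene type compete for an element. The difference between promoter and distal elements was not tested, since elements of 1 list are not replicates. A negative element within 1000 bp of the gene's own TSS was present at 8 genes, against 17.2% of all protein-coding genes. A negative promoter element together with a positive distal one was present at 5 genes, Lef1, Tox, Myb, Tcf12 and Id2, against 3.64% of all protein-coding genes. These shares of genes, too, were neither tested nor matched for territory or number of TSSs.

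**Figure D2:**
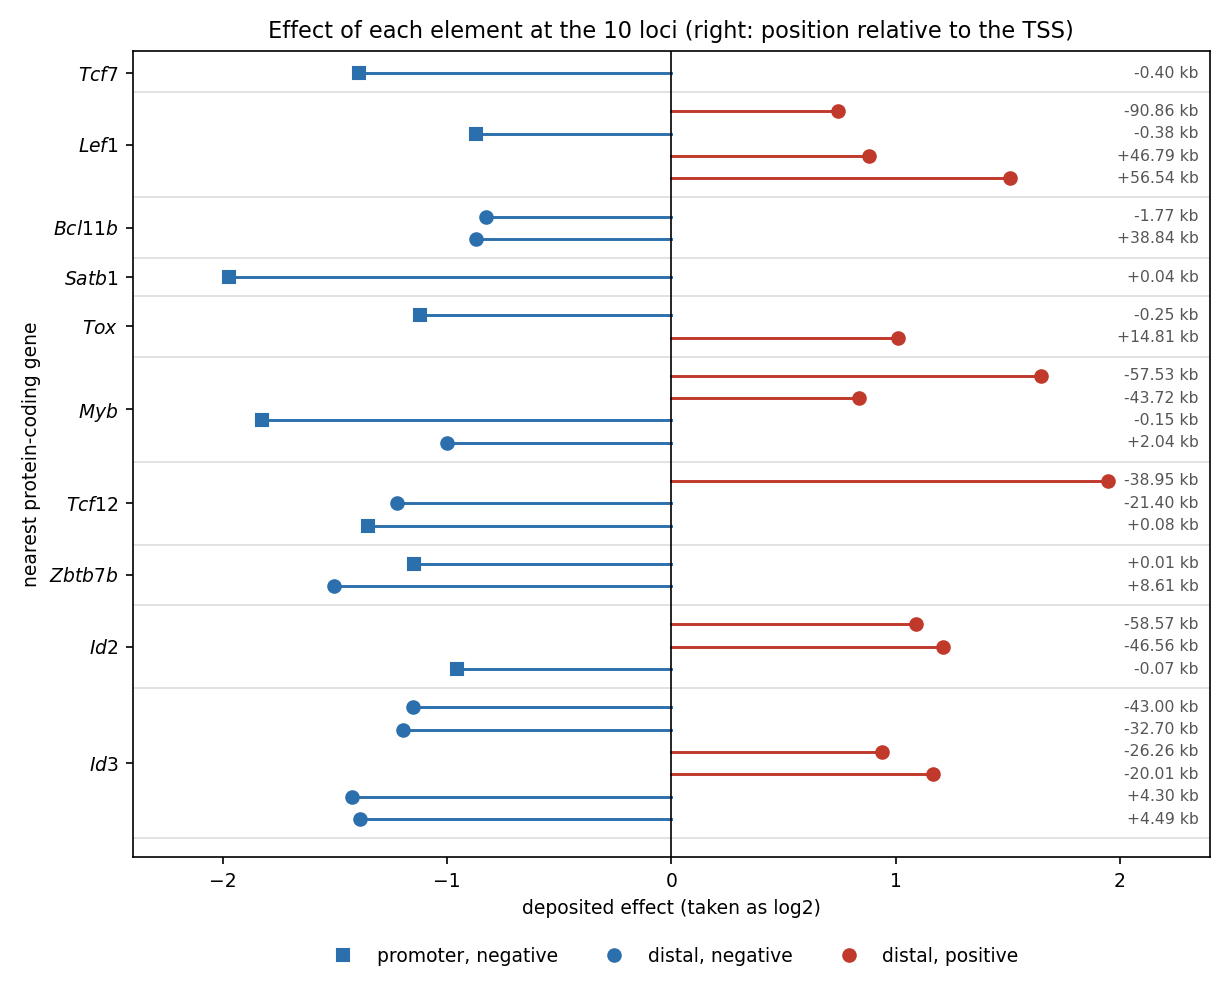
Deposited effect of each of the 28 elements (horizontal axis, taken as log2), grouped by gene and ordered from upstream to downstream within a gene, with the position of each relative to the TSS at the right. There are no error bars, since the authors deposited 1 value for both replicates; all values lie between -1.97 and 1.95, and each gene has at least 1 blue (negative) marker.

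At the HMG-box genes, the promoter of Tcf7 held its single element, at chromosome 11, 52283301 to 52283525, 399 bp upstream of the TSS. Its effect was -1.39 (the authors' adjusted p = 0.00369) at a GC content of 73.8%, and it lay in an intron of the antisense gene A630014C17Rik. Lef1 had 3 positive elements and a negative one. The negative element (chromosome 3, 131112001 to 131112825, effect -0.87, 61.7% GC) lay 384 bp upstream of the downstream one of the 2 annotated Lef1 start sites, within intron 1 of the longest transcript. The positive elements inside the gene both lay in intron 3, at 46.8 kb (131159401 to 131159775, effect 0.88, 45.9% GC) and 56.5 kb (131169001 to 131169675, effect 1.51, the authors' adjusted p = 2.14e-06, 46.4% GC) from that TSS. The last was intergenic, 90.9 kb upstream of the first Lef1 TSS (131019201 to 131020025), and had the smallest positive effect of the 28, 0.74. It was nearer to a TSS of A430072C10Rik, which is not annotated as protein-coding, at 6757 bp. The Lef1 locus thus showed a negative effect at a start site and positive effects in intron 3 and far upstream. Tox, another HMG-box gene, had a promoter element on chromosome 4 (6990551 to 6991550, effect -1.12, 63.2% GC) and a positive element in intron 1, 14.8 kb downstream of the TSS (6975851 to 6976125, effect 1.01, 45.5% GC).

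The genes of the zinc finger factor BCL11B and of the chromatin organiser SATB1 had negative elements only. The Satb1 element (chromosome 17, 51832951 to 51833550) spanned the TSS with its midpoint 40 bp inside exon 1, and its effect of -1.97 (the authors' adjusted p = 5.59e-06) was the most negative of the 28. No listed element within 100000 bp was positive for this gene. Bcl11b had no promoter element by the 1000 bp window. Its elements lay on chromosome 12, one of 50 bp at 1773 bp upstream of the TSS (108005351 to 108005400, effect -0.83, 72.0% GC) and one in intron 3 at 38.8 kb (107964326 to 107964825, effect -0.87, 53.4% GC). Both Bcl11b effects were among the smallest negative ones, at the 4th and 7th percentile of size among negative distal elements of the list.

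Myb, a factor of progenitors and early thymocytes, had elements of both signs on chromosome 10. The promoter element (21160901 to 21161375) lay 154 bp upstream with an effect of -1.83 (the authors' adjusted p = 5.71e-05) and a GC content of 69.3%. A further negative element lay in intron 1, 2042 bp downstream of a start site (21158401 to 21159325, effect -1.001, 55.6% GC). The positive elements lay upstream, at 43.7 kb (21204426 to 21204975, effect 0.84) and 57.5 kb (21218351 to 21218675, effect 1.65, the authors' adjusted p = 1.69e-05), both in introns of the long noncoding RNA gene Gm33728. The farther one had the lowest GC content of the 28, 39.7%. The next protein-coding TSS was that of Hbs1l, at 91279 and 77466 bp. Zbtb7b, on chromosome 3, had a negative element 14 bp downstream of one of its 4 annotated start sites (89387001 to 89387350, effect -1.15). Another lay wholly in an untranslated region of the last exon (89378226 to 89378925, effect -1.51, the authors' adjusted p = 0.000351, 65.4% GC), 8.61 kb from the nearest start. Neither Myb nor Zbtb7b had a positive element inside the gene.

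Among the E protein and its inhibitors, Tcf12 held the largest positive effect of the 28. Its promoter element on chromosome 9 (72110801 to 72112350) was the widest of the 28, at 1550 bp, with an effect of -1.35 and 119 CpG per kb. A negative element of 66.1% GC lay 21.4 kb upstream (72132751 to 72133800, effect -1.22), nearer to the processed pseudogene Gm7863, whose TSS was 4688 bp away, than to Tcf12. The positive element, 39.0 kb upstream, was 150 bp wide (72150751 to 72150900, effect 1.95, the authors' adjusted p = 0.00239, 41.3% GC). Id2, on chromosome 12, had a negative element 71 bp upstream of an internal one of its 3 annotated start sites (25095826 to 25096500, effect -0.96). The midpoint of that element lay inside the gene, in an untranslated region, in exon 2 of the 4 of the longest transcript. Positive elements lay 46.6 kb (25143376 to 25144025, effect 1.21, the authors' adjusted p = 9.05e-05) and 58.6 kb (25155451 to 25155975, effect 1.09, the authors' adjusted p = 0.000104) upstream of the first Id2 TSS. Both were nearer to a TSS of the long noncoding RNA gene Gm36287, at 7215 and 4798 bp, and the farther one from Id2 lay in its intron.

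Id3, on chromosome 4, had no promoter element but the most elements for its territory, at 10.1 per 100 kb. Zbtb7b was close, at 9.15 per 100 kb from 2 elements. The Id3 figure counts a pair of elements 25 bp apart as 2, so its lead depends on how the list divides them. From upstream to downstream its effects were -1.15 at 43.0 kb, -1.20 at 32.7 kb, 0.94 at 26.3 kb and 1.16 at 20009 bp upstream. These elements start at 136099951, 136110601, 136116951 and 136123051. The first was almost as near to the next protein-coding TSS, that of Rpl11 at 47107 bp. Beyond the gene's end lay a pair of negative elements 25 bp apart, 4.30 and 4.49 kb from the TSS, with effects of -1.42 (136147701 to 136147900, the authors' adjusted p = 1.34e-06) and -1.39 (136147926 to 136148050). Their GC content was 68.5% and 78.4%. The positive elements thus lay between negative ones, with midpoints 6.44 kb from the nearest negative element on the upstream side and 24.3 kb on the downstream side.

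Effects at these genes were small within the list. None of the 28 reached an absolute effect of 2, which 22.8% of listed elements did. The median size percentile was 32.4 for the 8 promoter elements among negative promoter elements, 41.4 for the 9 negative distal elements and 31.3 for the 11 positive ones among listed elements of the same kind. The median positive effect was 1.09, against 1.37 over all listed positive distal elements. Those above the median of their kind were the promoter elements of Satb1 and Myb, the negative distal elements of Zbtb7b and the Id3 downstream pair, and the positive elements of Tcf12, Myb (57.5 kb) and Lef1 (56.5 kb). No near-identical copy of any of the 28, at 95% identity over 80% of the element, was found elsewhere on the chromosomes.

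The sign of an element went with its GC content. Positive elements had a median GC content of 47.8% (range 39.7 to 56.7) and negative ones 66.1% (range 50.6 to 78.4), with 18.2 and 69.0 CpG dinucleotides per kb. Promoter elements had a median of 67.1% and distal ones 52.0%. Of the 17 negative elements 14 had a GC content of at least 60%, and of the 11 positive elements 8 were under 50%. Summed over the GC bins (5 percentage points wide) and classes of the 20 distal elements, the positive shares of the whole list came to 13.3 positive elements, against 11 found. For the 8 promoter elements they came to 0.724, against 0. The least usual signs for class and GC content were those of 2 negative elements at 50 to 55% GC, the Bcl11b intron 3 element (53.4%) and the Id3 element at 43.0 kb (50.6%), where 12.3% of the 967 listed distal elements of that bin were negative. The Myb intron 1 element, at 55.6% GC, followed, in a bin where 28.5% of 316 distal elements were negative. The adjusted p-values of the first 2 were 0.00913 and 0.0089, close to the limit of the list.

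**Figure D3:**
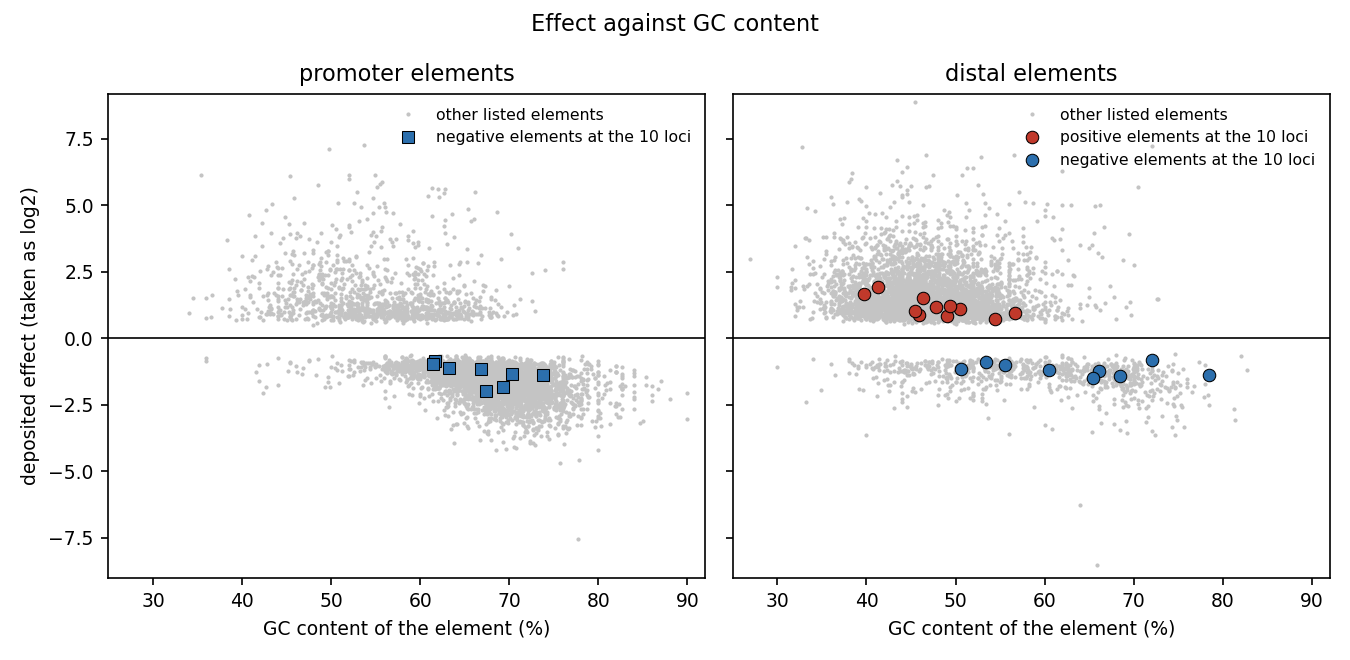
Deposited effect (vertical axis, taken as log2) against GC content in percent for promoter elements (left) and distal elements (right). Grey points are all other listed elements, blue squares and circles negative elements and red circles positive elements at the 10 genes; the red circles lie between 39.7 and 56.7% GC and the blue markers between 50.6 and 78.4%.

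Distance from the TSS went with sign as well. All 4 distal elements at 1000 to 5000 bp (Bcl11b, Myb and the Id3 pair) were negative and had a median GC content of 70.3%. In the list as a whole 66.1% of the 717 distal elements at that distance were positive, at a median GC content of 51.7%. Of the 15 elements beyond 10000 bp, 11 were positive, against 87.6% of 2953 listed elements. By annotation, 7 of the 28 lay in an intron of their own gene. When TSSs of every gene type competed, 14 of the 28, 13 of them distal, were nearest to another gene, so the link from a distal element to its gene rests on distance among protein-coding genes alone.

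Motifs were counted in the 200 bp around each midpoint, on both strands, so that widths do not differ, and the window of an element under 200 bp reaches beyond it. Of activation-linked sites, AP-1 was searched as TGANTCA, the related CRE as TGACGTCA, and NFAT, which acts downstream of calcineurin, as GGAAAA. For cytokine and interferon factors, STAT was searched as TTCNNNGAA and the ISRE core as GAAANNGAA. Of lineage factors, RUNX was searched as TGTGGT and ETS as CCGGAA. The GATA site was AGATAA in this search. For the members' own proteins, TCF/LEF was searched as CTTTGA and MYB as CNGTTA. The E-box was searched in a symmetric form, CAGCTG, and in an asymmetric form with the letters CAGGTG. Of sites common in promoters, SP/KLF was searched as GGGCGG and EGR as GCGTGGGCG, while NRF1 had the letters GCATGCGC. Matches of different motifs may share bases, as those of NFAT and the ISRE core or of SP/KLF and EGR can. A match is a description of the letters and not a bound site. The SP/KLF site, a GC box, was matched in 6 of 8 promoter windows and 4 of 9 negative distal windows but in 0 of 11 positive ones, beside 59.3%, 34.5% and 6.28% of the same windows over the whole list. The most matches, 4 each, stood at the Tcf7 and Tcf12 promoters. AP-1, the site of FOS, JUN and BATF factors, was matched in 4 of 11 positive windows (Lef1 at 56.5 kb, both of Id2, and Id3 at 26.3 kb), beside 29.2% of all listed positive distal windows, in 2 of 9 negative distal windows (Id3 at 32.7 kb and the Zbtb7b last exon), beside 10.5%, and in 0 of 8 promoter windows, beside 3.43%.

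The motifs of the members' own products were also present. The TCF/LEF site was matched in 5 of 28 windows (17.9%, against 10.8% of all listed windows): the promoters of Tcf7 and Zbtb7b, both upstream elements of Myb, and the Id3 element at 26.3 kb. The Myb element at 57.5 kb held 2 of these matches, with 1 each for MYB, RUNX, NFAT, STAT and the ISRE core, the widest range of motifs of any of the 28. The MYB site was matched in 3 windows (10.7%, against 14.0%). The asymmetric E-box, which E proteins and ZEB factors bind, was matched in 6 of 9 negative distal windows, beside 16.5% of all listed negative distal windows, and in 1 of 11 positive ones, beside 13.8%. Those 6 were both Bcl11b elements, Myb intron 1, the Zbtb7b last exon, the Id3 element at 32.7 kb and one of the Id3 pair. The upstream Bcl11b element (50 bp) and that one of the Id3 pair (125 bp) are narrower than their windows, so their matches may lie outside the element. The symmetric E-box was matched in 4 of 28 windows (14.3%, against 10.8% of all listed windows). No 200 bp window matched CRE, ETS, EGR or NRF1, which were matched in 1.68%, 8.93%, 0.713% and 1.15% of all listed windows. Over the whole element ETS was matched in 14.3% of the 28, but no whole-element share of the list is given to set beside it. These counts were not tested, and they rest on few elements of which several share a locus.

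**Figure D4:**
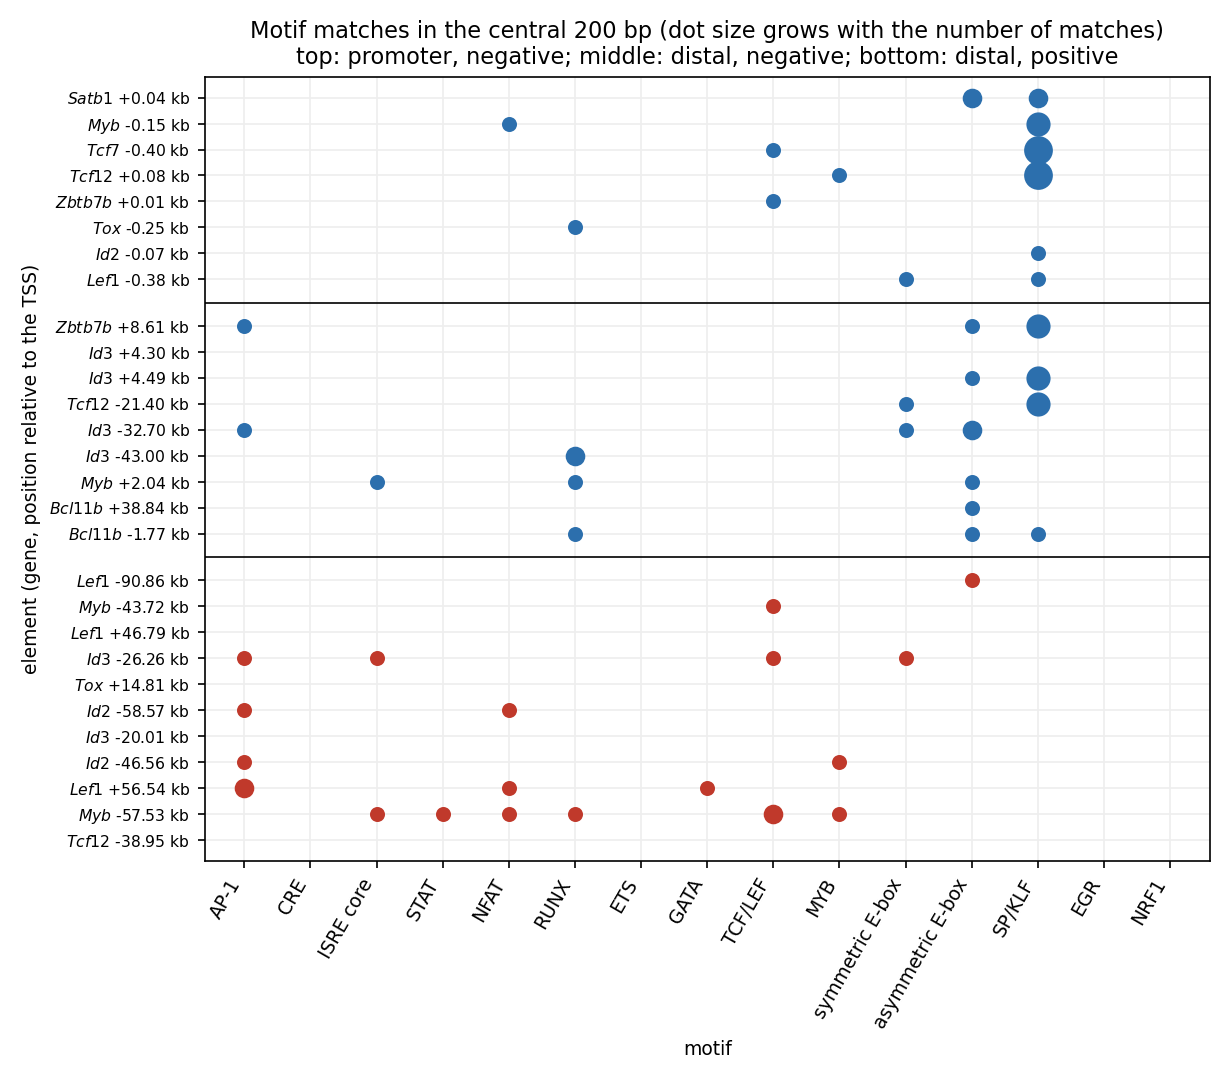
Motif matches in the central 200 bp of each of the 28 elements (rows: gene and position relative to the TSS, in 3 blocks of negative promoter, negative distal and positive distal elements; columns: motifs). Dot size grows with the number of matches; SP/KLF dots stand in the upper 2 blocks only, and AP-1 dots in 4 of the 11 rows of the lowest block.

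Elements were also counted at related genes. Over all protein-coding genes 31.2% had an assigned element, 16% a positive and 19.8% a negative one. These shares were not matched for territory, and each list holds few genes, so the counts below show no excess or lack. Of 15 paralogs of the members, 8 had an element, 2 a positive and 7 a negative one. Of their 12 elements 8 were negative, while 51.3% of all listed elements were positive. The largest effect was at the promoter of Tox3 (-3.06), followed by a positive one 80790 bp from a Tcf7l2 TSS (2.41). The promoter of Tcf7l1 (-2.25) came next. Of 11 other T lineage factors, 9 had an element, 6 a positive and 7 a negative one. Among them were Runx1 (2.55, 73726 bp from the TSS), Hes1 (-2.46, 5198 bp) and Zbtb17 (-1.92, 29 bp). Of 4 B cell genes 2 had an element, Pax5 (-2.65, 46045 bp from the TSS) and Ebf1 (effects up to 1.34, at 80796 bp). The Pax5 element counted as a promoter element, since a TSS of a gene that is not protein-coding lay within 1000 bp of it. Of 3 myeloid genes (Spi1, Cebpa and Csf1r) none did. The median territory was 172 kb for the 10 genes, 141 kb for the paralogs and 117 kb for the other T lineage factors, and the lists were not compared by a test.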

How the data were processed

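STARR-seq was measured in 2 replicates of 1 group, and the authors deposited 1 list of elements in narrowPeak format for both together, on build mm10 per the labels and the deposited readme text. Its seventh column is the deposited effect, taken as log2, and the 2 after it are the deposited p-value and adjusted p-value. The last column equalled end minus start plus 1, so starts were read as counted from 1. Which aligner, element caller and input were used is not stated in the labels.

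Elements were assigned to the nearest protein-coding TSS of GENCODE M21 basic within 100000 bp, and the 10 on unplaced scaffolds were left out, which left 10521. Sequence came from GRCm38.p6. The sequences of some elements are not reported here. GC, CpG and motif matches were computed with Python 3.11.15, pandas 2.3.3, NumPy 2.4.6, SciPy 1.17.1 and pysam 0.24.0, and copies were sought with BLAST 2.17.0. Assignment and motif matching were tested on simulated data. All elements of the 10 genes are named, and of other lists at most 3 genes by absolute effect. The members and lists were chosen with earlier results of these data known. Only the authors' p-values test an element; medians, shares and counts carry no test, and no depth or spread between replicates could be computed. Alternatives changed the p-value limit, the distance limit, the competing TSSs, the width, the promoter window and the motif window.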

Additional observations from a re-analysis of the deposited data

How the results depend on the processing

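Of 84 values under 7 alternatives of the assignment, the p-value limit, the width and the promoter window, 70 stayed within 1.5 times (counts) or within the 95% order-statistic interval of the median, 12 moved further and 2 changed sign. For the 8 promoter elements that interval was their full range (effect -1.97 to -0.87), and most alternatives kept these same elements. The promoter medians could thus hardly leave it, and no conclusion is drawn from their staying. The interval is descriptive only, since elements of 1 list are not replicates. The promoter elements were all negative under each of the 7, from 3 of 3 at the stricter p-value limit to 9 of 9 with a promoter window of 2000 bp. All 8 were negative at the start, so a setting that kept these or fewer could give no other sign. The element added at 2000 bp was the negative Bcl11b element 1773 bp upstream of the TSS. No conclusion is drawn from these counts either. At an adjusted p of at most 0.001 there were 14 elements, 6 positive and 8 negative, 3 promoter and 11 distal, and 6 genes had a negative one. With a limit of 50000 bp, 7 elements were positive and the median distal effect was -0.85. When TSSs of every gene type competed, 14 elements remained, 7 distal and 1 positive, at 1 gene, the median distal effect was -1.001 and the median distal GC content 65.4%. That setting lets TSSs of other gene types take elements by construction. Of 30 motif shares over all 28 elements, 23 stayed within their 95% exact interval, and 7 rose when the whole element was searched, namely AP-1 (21.4% to 42.9%), NFAT (14.3% to 57.1%), ETS (0% to 14.3%), RUNX (17.9% to 39.3%), MYB (10.7% to 32.1%), the ISRE core (10.7% to 28.6%) and the symmetric E-box (14.3% to 42.9%). The median width of the 28 was 562.5 bp, so a whole-element search mostly covers more sequence than 200 bp and can match more often. No whole-element share of the list is given, so no conclusion is drawn from these rises. No paired analysis was possible because the list holds 1 value for both replicates, and no replicate could be left out. Depth is unknown.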

Other observations

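Beyond the 100000 bp limit, within 500000 bp, 4 further elements had a member gene as their nearest protein-coding gene, and all 4 were positive. Satb1, whose only nearer element was its negative promoter, had 3 of them. They lay on chromosome 17, at 224 kb relative to the start site (51586601 to 51586700, effect 1.57, 100 bp wide), at -244 kb (52076551 to 52077225, effect 1.65, the authors' adjusted p = 4.78e-07) and at -329.5 kb (52162326 to 52163275, effect 2.24, the authors' adjusted p = 2.69e-08). Their GC content ran from 40.0 to 47.0%, and the farthest had a larger effect than any of the 28 elements within the limit. Id2 had the fourth, at -209 kb (25305826 to 25306650 on chromosome 12, effect 0.82, 43.8% GC). Nearness at such distances is a weak link, and no assay here ties an element to a gene.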
